A study of Cucumis melo with 4 samples.

Results

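The genes described here are the 104 melon (Cucumis melo) genes to which 2 or more promoter peaks of the transcription factor CmNOR were assigned. They are 4.94% (95% exact Clopper-Pearson interval 4.05 to 5.95) of the 2105 genes with at least 1 promoter peak, and 2.31% of the 4510 genes assigned any of the 5493 listed peaks. A promoter peak is one whose nearest edge lies at most 3000 bp from the gene start, on either side. The members were therefore chosen by the peak distances themselves, so their number and distances are a description and were not tested. They hold 209 promoter peaks, 9.46% of the 2210 in the list, and the other 2001 genes with a promoter peak have 1 each.

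The peaks come from DAP-seq, an in vitro assay that sequences the pieces of naked genomic DNA retained by a purified, tagged protein. The baits were MBP-His-CmNOR, a fusion of CmNOR with maltose-binding protein and a His tag, in 2 libraries and MBP-His, the tags without CmNOR, in 2 control libraries, with E. coli as the source of protein and melon genomic DNA as the target in all 4. A PCR-amplified DNA library, which has lost native cytosine methylation, is also described, with no statement of the libraries it served. The analysed values are 1 combined list of peaks with no column per library, so depth is unknown, spread between repeats was not measured, CmNOR was not compared with the tag, and no test between groups was made. Intervals below cover counting error only, and positions are on the authors' genome build, whose name is not given in the sources used.

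NAC proteins are a plant-specific family of transcription factors that bind DNA through a conserved domain near their amino end and commonly act as dimers. CmNOR is named after the tomato NON-RIPENING gene, whose mutation blocks fruit ripening. DAP-seq shows where the protein can bind naked DNA, without nucleosomes or partner proteins. Several bound stretches near 1 gene start are often examined for cooperation between sites, a question these values cannot address.

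The name promoter covers more than upstream DNA here, and few of the 104 genes carried all their promoter peaks upstream. Both peaks lay upstream in 13 genes, 12.5% (6.83 to 20.4). In a further 9 genes 1 peak was upstream and the other covered the gene start. The most common arrangement, in 50 genes or 48.1% (38.2 to 58.1), had peaks both upstream and downstream of the start. A further 23 genes, 22.1% (14.6 to 31.3), had all their promoter peaks downstream, and 9 had 1 over the start and 1 downstream. Any upstream peak was present in 72 of the 104 genes, 69.2% (59.4 to 77.9). In genes with 1 promoter peak, 46.3% of the peaks were upstream and 44.4% downstream. How often unrelated peaks would fall on both sides of a start was not computed, so a preferred arrangement was not tested.

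Downstream peaks of these genes mostly lay inside the gene rather than beyond it. Of the 209 promoter peaks, 85 were upstream, 18 covered the start, 82 had their centre inside the gene and 24 past its end. Upstream peaks made up 40.7% (33.9 to 47.7) of the promoter peaks of multi-peak genes and 46.3% (44.1 to 48.5) of those of genes with 1 promoter peak. Peaks inside the gene made up 39.2% (32.6 to 46.2) in multi-peak genes and 31.1% (29.1 to 33.2) in genes with 1 promoter peak. The intervals of both shares overlap between the groups. In genes of at least 3000 bp, where the whole downstream range is gene body, the downstream share was 51.2% (42.1 to 60.2) of 125 peaks in multi-peak genes and 47.1% (43.9 to 50.4) of 929 peaks in genes with 1 promoter peak.

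**Figure D1:**
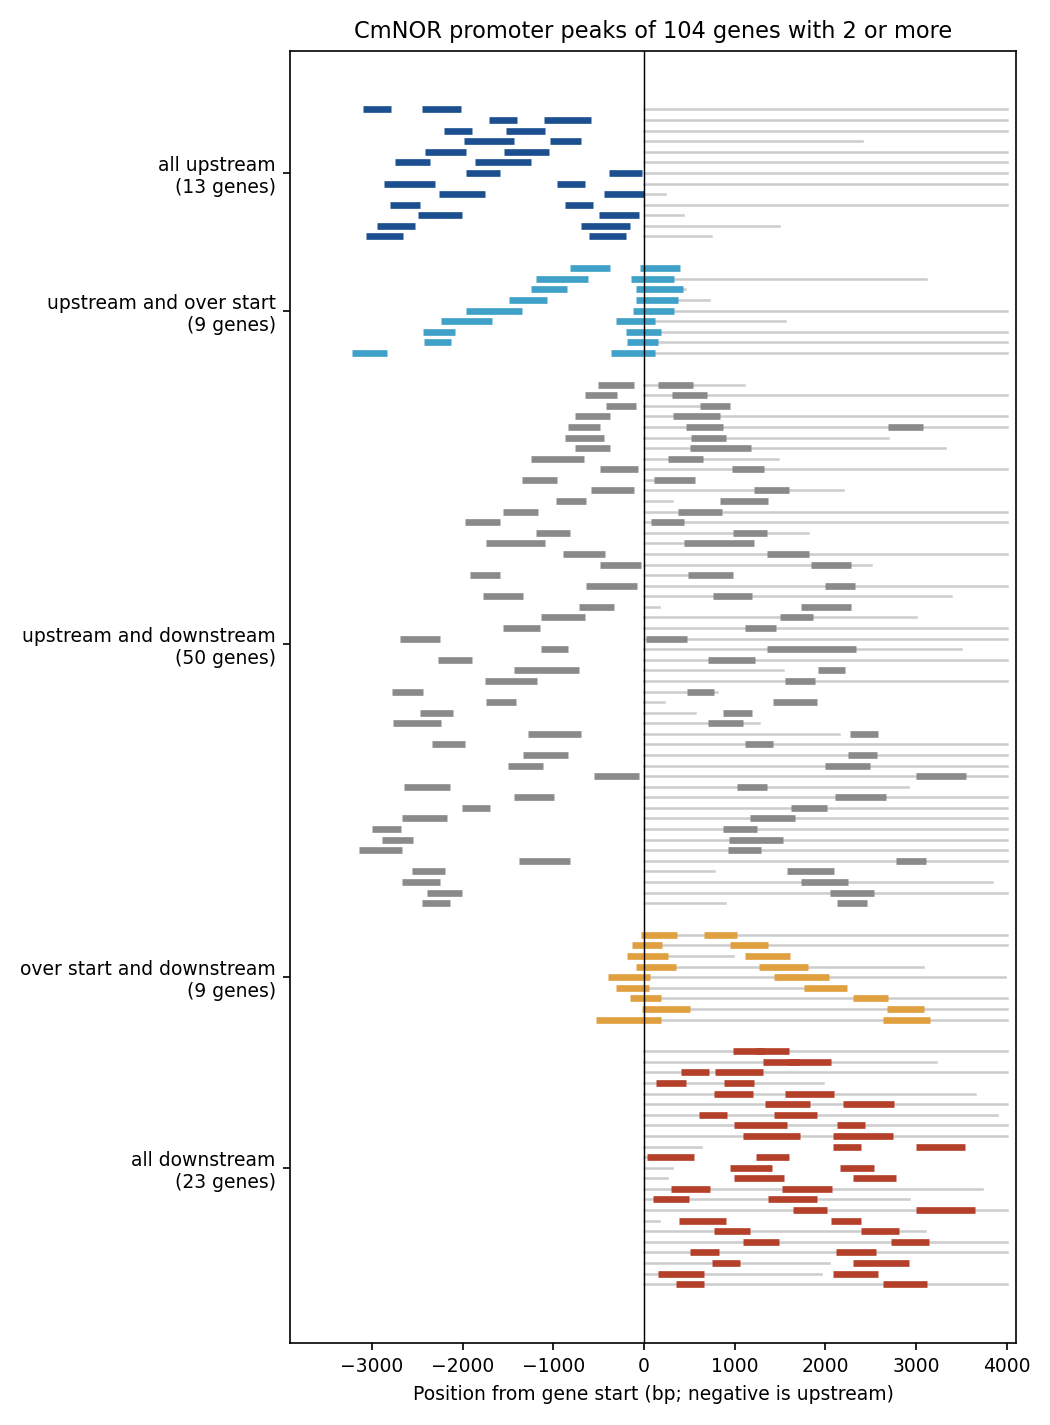
Positions of the promoter peaks of the 104 multi-peak genes, 1 gene per row, in bp from the gene start (vertical line, negative is upstream), with thick bars for peaks at their true width and thin grey lines for the gene body, drawn up to 4000 bp. Rows are grouped by side and sorted by spacing, and the 50 genes with peaks both upstream and downstream form the largest block, against 13 with all peaks upstream.

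Where peaks lay on both sides of a start, their median distances were similar. In the 49 genes with exactly 1 upstream and 1 downstream peak, the upstream peak had a median distance of 1094 bp (quartiles 446 and 2008) and the downstream peak one of 1028 bp (quartiles 522 and 1728). The upstream peak was the nearer in 25 of the 49. In 9 of these 49 genes both distances agreed within 100 bp, a limit chosen after the values were seen. How often unrelated distances would agree as closely was not computed, so symmetric placement was not tested. Across all members the nearest promoter peak lay at a median of 476.5 bp and the farthest at 1898 bp. Both peaks were within 1000 bp of the start in 18 genes and within 2000 bp in 57. In 22 genes all promoter peaks were beyond 1000 bp.

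MELO3C021299.2 was the 1 gene with 3 promoter peaks, and at 13389 bp it was also the longest of the 104. It is annotated with phosphatidylinositol binding, a property of proteins that attach to signalling lipids of membranes. On chromosome 11 its peaks spanned 30528927 to 30529285, lying 484 bp upstream of the start, 30527574 to 30527982, lying 461 bp inside, and 30525366 to 30525754, lying 2689 bp inside. Their widths were 359, 409 and 389 bp. The upstream peak and the first peak inside the gene thus flanked the start at nearly equal distances.

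At the limit of the rule, 3 members had a promoter peak exactly 2994 bp downstream of the start, and these were the only 3 of the 5493 peaks at that distance. They were MELO3C009365.2, MELO3C014383.2 and MELO3C021579.2, with their other promoter peaks at 1640, 56 and 2085 bp. The next in distance, on the other side, was MELO3C030296.2, without a GO term, with a peak 2829 bp upstream and the other over its start. Just outside stood MELO3C014311.2, a gene of tryptophan biosynthesis, with peaks 1917 and 3027 bp downstream, and MELO3C031729.2, annotated to a transcriptional repressor complex, with peaks 1149 and 3039 bp upstream. MELO3C012221.2, a transcription coactivator gene, had peaks 91 bp upstream and 3061 bp downstream. MELO3C003457.2, annotated with negative regulation of flower development, had peaks 780 bp upstream and 3089 bp downstream.

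Neighbouring promoter peaks of 1 gene were most often 1 to 2 kb apart, though most genes lay outside that range. The median distance between peak centres was 1906 bp (quartiles 1203 and 2855, range 263.5 to 4584), and the median gap between facing edges was 1397 bp. A bin of 1000 to 1500 bp held the most genes, 21, followed by 17 at 1500 to 2000 bp and 16 at 500 to 1000 bp. Spacing was under 1000 bp in 19 genes and at least 3500 bp in 14. Spacing follows the distance limit, with a median of 1148 bp at a limit of 1000 bp and 2284 bp at 5000 bp, so no preferred spacing can be read from it. Side and spacing are tied by the rule, since peaks on 1 side can be at most about 3 kb apart. At the limit of 3000 bp the median was 2781 bp in genes with peaks on both sides, 1572 bp where all were upstream and 1165 bp where all were downstream.

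**Figure D2:**
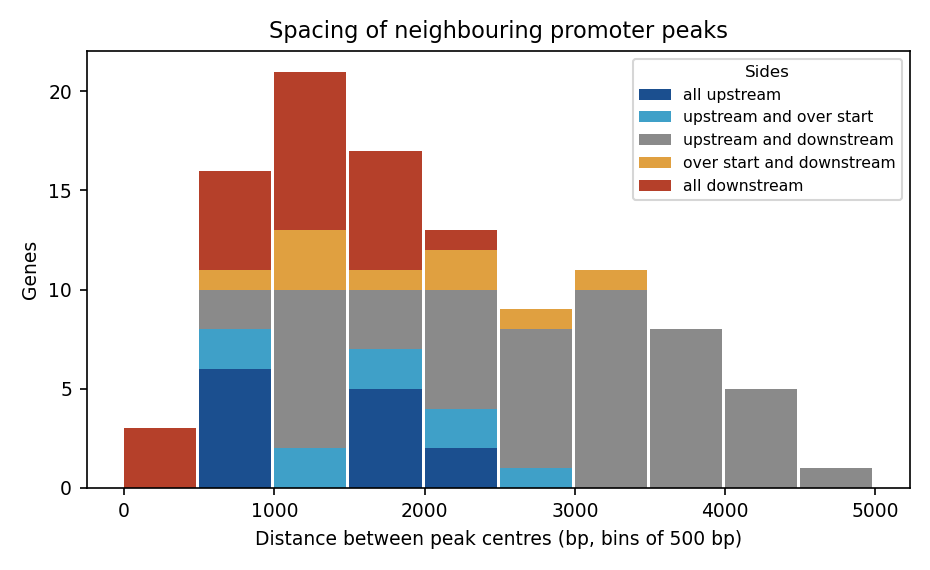
Distance in bp between the centres of neighbouring promoter peaks in the 104 multi-peak genes (for the gene with 3, the smaller distance), in bins of 500 bp, with bar segments coloured by the sides of the peaks. The fullest bin, 21 genes, runs from 1000 to 1500 bp, and every gene beyond 3500 bp has peaks on both sides of the start.

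The closest pairs included 2 that overlapped, so a pair in the list is not always 2 separate stretches. MELO3C008774.2 on chromosome 5 is annotated to the TFIIH core complex, which opens DNA for transcription and excision repair. Its peaks at 19055281 to 19055628 and 19055540 to 19055896, inside the gene, shared 89 bp, with centres 263.5 bp apart. MELO3C006006.2 on chromosome 6 has no GO term, and its peaks at 522694 to 523094 and 522971 to 523447 shared 124 bp. Overlaps were rare in general, with 5 among the 5480 neighbouring pairs of the whole list. In MELO3C014825.2, a membrane protein gene on chromosome 6, a gap of 66 bp separated peaks 405 and 783 bp inside the gene. The hydrolase gene MELO3C008100.2 on chromosome 3 had its start between a peak 115 bp upstream and one 153 bp inside, with centres 656.5 bp apart. The peptidase gene MELO3C022227.2 on chromosome 9 had a peak over its start and one 666 bp inside, with centres 679 bp apart. In MELO3C030611.2 on chromosome 4, without a GO term, the peaks lay 2018 and 2792 bp upstream, 712 bp apart by their centres. In all, 17 members had a gap under 500 bp.

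The most widely spaced pairs all flanked the gene start, as the limit of 3 kb requires. The largest distance between centres, 4584 bp, belonged to MELO3C015253.2 on chromosome 2, annotated with protein dimerization, with peaks 2135 bp upstream and 2131 bp downstream, the second past the end of this 894 bp gene. The protein kinase gene MELO3C004349.2 on chromosome 5 followed with peaks 2008 bp upstream and 2056 bp inside, 4498 bp apart. MELO3C020368.2, a membrane-bound kinase gene on the same chromosome, had peaks 2252 bp upstream and 1728 bp inside, 4446 bp apart. These 3 pairs sat far from the start on both sides. MELO3C002437.2 on chromosome 12, without a GO term, had peaks 2196 bp upstream and 1580 bp downstream. MELO3C011747.2 on chromosome 10, annotated with regulation of transcription, had peaks 819 bp upstream and 2776 bp inside. The heme-binding oxidoreductase gene MELO3C017559.2 on chromosome 7 had peaks 2666 bp upstream and 931 bp inside.

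Genes with several promoter peaks were longer at the median than genes with 1. The median length was 3868 bp (95% interval 2997 to 4332, from order statistics) in the 104 multi-peak genes and 2750 bp (2582 to 2896) in the 2001 genes with 1 promoter peak. These intervals do not overlap, and no test was made because resampling genes would not replace repeated libraries. They did overlap at a limit of 2000 bp, with medians of 3268 bp (2405 to 4112) in multi-peak genes and 2778 bp (2635 to 2953) in genes with 1 promoter peak, and at 1000 bp, with 2685 and 2659 bp. They also overlapped with peaks of at least the median width and after merging peaks up to 500 bp apart. Lengths ran from 162 to 13389 bp in multi-peak genes and from 119 to 59806 bp in genes with 1 promoter peak. Genes of 1000 to 3000 bp made up 19.2% (12.2 to 28.1) of multi-peak genes and 29.6% (27.6 to 31.6) of genes with 1 promoter peak. Those of 3000 to 6000 bp made up 36.5% (27.3 to 46.6) of multi-peak genes and 28.3% (26.4 to 30.4) of genes with 1 promoter peak. Genes under 1000 bp were about as common in both, 21.2% (13.8 to 30.3) of multi-peak genes and 24.0% (22.1 to 25.9) of genes with 1 promoter peak.

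**Figure D3:**
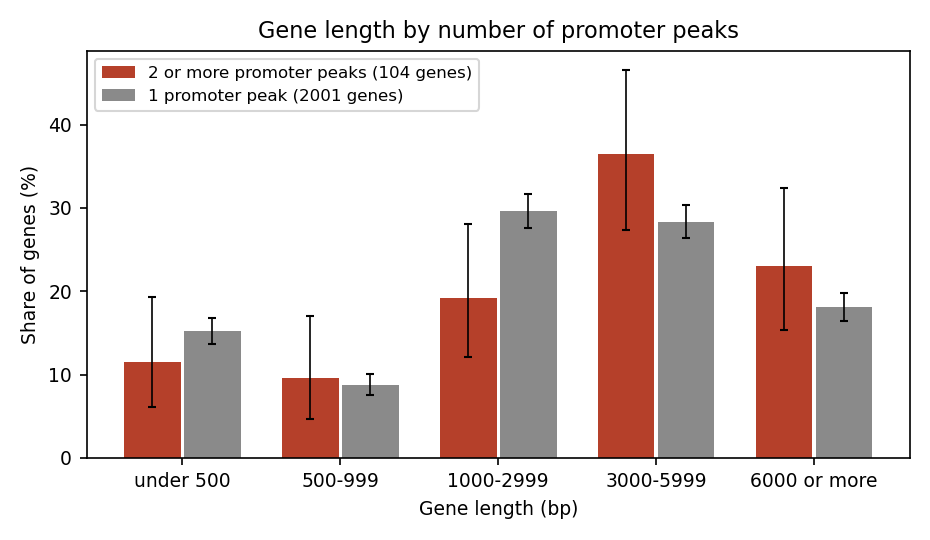
Share of genes in 5 length classes (bp), for the 104 genes with 2 or more promoter peaks (red) and the 2001 genes with 1 (grey), with 95% exact Clopper-Pearson intervals as error bars. The red bars stand above the grey from 3000 bp upwards (36.5% against 28.3% at 3000 to 6000 bp) and below them at 1000 to 3000 bp (19.2% against 29.6%).

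The longest members after MELO3C021299.2 were annotated to ubiquitin removal, membranes and DNA replication. First came MELO3C009559.2 on chromosome 4, 12212 bp long and annotated as a ubiquitinyl hydrolase, an enzyme that removes ubiquitin from proteins. It had peaks 1900 bp upstream and 704 bp inside. MELO3C011823.2, a membrane protein gene of 12160 bp on chromosome 10, had peaks 1584 bp upstream and 74 bp inside. MELO3C020815.2, a DNA replication gene of 11420 bp on chromosome 11, had promoter peaks 506 and 2113 bp inside and a further peak in an intron 6457 bp from the start.

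In the shortest members downstream peaks were often centred past the gene end, though some of these peaks still overlapped the gene. An upstream peak together with 1 centred past the gene end was seen in 11 members, and 9 of these were among the 22 members under 1000 bp. In MELO3C032481.2, MELO3C007381.2 and MELO3C034561.2, which are among the 9, the second peak overlapped the end of the gene. In 5 of the 22 both peaks were centred past the gene end. The shortest gene models were MELO3C006163.2 on chromosome 6 and MELO3C022611.2 on chromosome 10, each of 162 bp. MELO3C006163.2, annotated as an NAD-dependent oxidoreductase, had peaks 335 bp upstream and 1735 bp downstream. MELO3C022611.2, without a GO term, had peaks 388 and 2064 bp downstream. The transcription factor gene MELO3C029918.2 on chromosome 3, 171 bp long, had peaks 30 and 1233 bp downstream of the start, the first overlapping most of the gene. MELO3C011674.2, a gene of 219 bp on the same chromosome without a GO term, was bracketed by peaks 1415 bp upstream and 1425 bp downstream. Short gene models also lacked GO terms more often, 11 of 22 multi-peak genes under 1000 bp against 9 of 82 longer ones. The same held for 252 of 480 short genes with 1 promoter peak, against 164 of 1521 longer ones.

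Peaks of multi-peak genes were about as wide as those of genes with 1 promoter peak, and widths within a pair often differed. The median width was 420 bp (95% interval 397 to 445, range 302 to 984) for the 209 peaks of multi-peak genes and 428 bp (421 to 435, range 298 to 1711) for the 2001 others. The interval for multi-peak genes counts their peaks as independent, although each gene holds 2 or more. The nearer peak was the wider in 48 of 103 pairs. The wider peak of a pair exceeded the narrower by a median ratio of 1.26, and by more than 1.5 in 25 of 103 pairs. Spearman's rho between both widths was -0.14 over the 103 pairs, a description over genes of 1 list. In 25 genes both peaks reached the median width of all promoter peaks, 428 bp, and in 27 genes neither did.

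**Figure D4:**
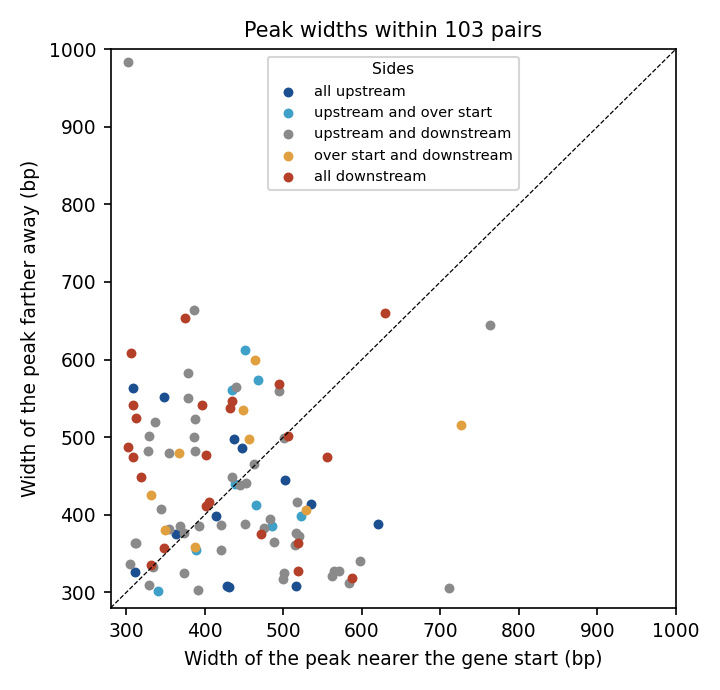
Width in bp of the peak nearer the gene start against that of the farther peak, 1 point per gene for the 103 genes with exactly 2 promoter peaks, coloured by side, with a dashed line at equal width. Points fall on both sides of the line (the nearer peak is wider in 48 of 103), and 1 farther peak stands apart at 984 bp.

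The widest promoter peak among the members, 984 bp, belonged to the signal transduction gene MELO3C022131.2. It lay at 866172 to 867155 of chromosome 9, 1358 bp inside the gene, while its partner 839 bp upstream was 302 bp wide. The next was a peak of 763 bp, 447 bp inside MELO3C030276.2 on chromosome 3, which has no GO term, with a partner of 644 bp 1094 bp upstream. That pair was wide on both sides, unlike the first. The ribosomal protein gene MELO3C008044.2 on chromosome 8 had a peak of 727 bp over its start and one of 516 bp lying 2640 bp inside. MELO3C007321.2 on the same chromosome, annotated with protein ubiquitination, had a peak of 711 bp lying 717 bp upstream and one of 305 bp past its end.

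By function the multi-peak genes were spread over many processes. A GO term was present for 84 of 104 multi-peak genes, 80.8% (71.9 to 87.8), and for 1585 of 2001 genes with 1 promoter peak, 79.2% (77.4 to 81.0). Of the 84, 51 fell in at least 1 of 12 keyword lists, 60.7% (49.5 to 71.2), against 59.0% (56.5 to 61.4) of the 1585. In 0 of the 12 lists did the exact interval of the multi-peak genes leave out the share in genes with 1 promoter peak. No list was tested, since the members were chosen with results of these data known.

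**Figure D5:**
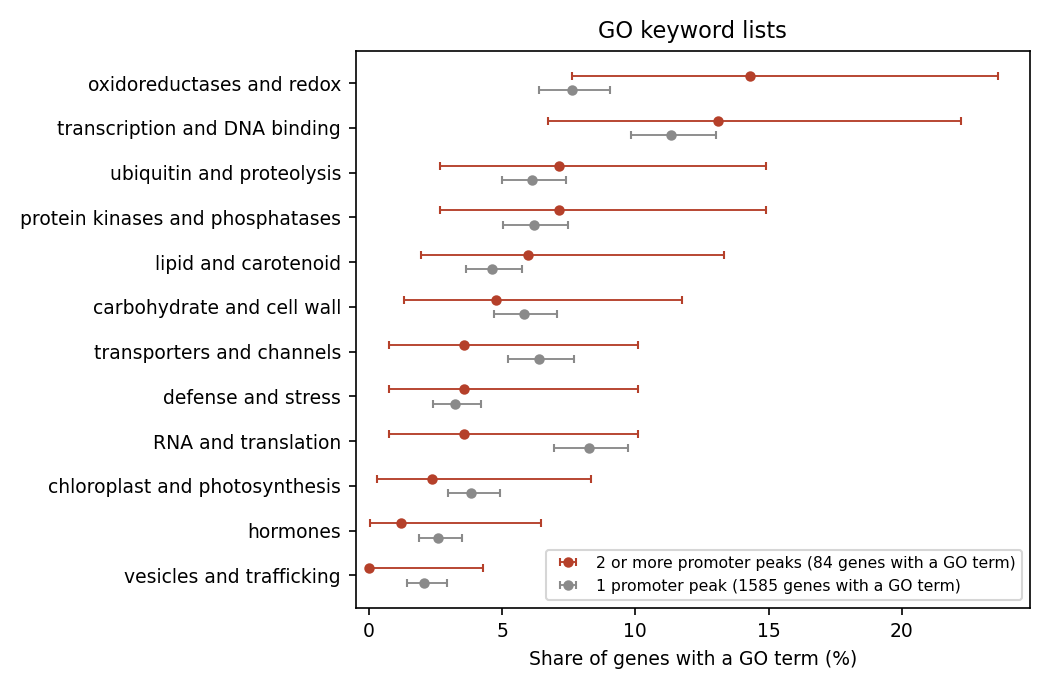
Share of genes with a GO term that fall in each of 12 keyword lists (%), for 84 genes with 2 or more promoter peaks (red, upper point of each row) and 1585 genes with 1 (grey, lower point), with 95% exact Clopper-Pearson intervals. Oxidoreductases and redox show the widest separation in favour of multi-peak genes, 14.3% against 7.63%, with overlapping intervals.

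Regulators of transcription and DNA-binding proteins numbered 11 of 84 multi-peak genes, 13.1% (6.72 to 22.2), and 180 of 1585 genes with 1 promoter peak, 11.4%. In 5 of the 11 all promoter peaks were downstream, against 23 of all 104 multi-peak genes. In 3 they lay on both sides, against 50 of the 104, and 1 had both upstream, against 13 of the 104. A total of 11 genes limits what can be read from these counts. The 5 include MELO3C008774.2, whose peaks overlap, and MELO3C029918.2, a short gene model with both peaks centred past its end. MELO3C006973.2, annotated as a DNA-binding transcription factor, had a peak over its start at 7868234 to 7868689 of chromosome 6 and one past its end, 1116 bp from the start. MELO3C024490.2 on chromosome 8, annotated to the nucleosome, the unit of DNA packing, had a peak over its start and one 1075 bp upstream. MELO3C023972.2 on chromosome 4 carries the term for telomerase, the enzyme that extends chromosome ends, and had peaks 1165 bp upstream and 376 bp inside. The list thus holds DNA enzymes and packaging proteins beside transcription factors.

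The lists on signalling cover protein kinases and phosphatases and hormones. The kinase and phosphatase list had 6 of 84 multi-peak genes, 7.14% (2.67 to 14.9), and 98 of 1585 genes with 1 promoter peak, 6.18%. 5 of the 6 carry the term for protein kinase activity, the transfer of phosphate to proteins, and the other, MELO3C021579.2, encodes a kinase inhibitor. The kinase gene MELO3C020368.2 named above is not in the list, as it carries the term kinase activity without that for protein kinase activity. The same keywords were used for genes with 1 promoter peak. MELO3C002198.2 on chromosome 12 had its start between peaks 299 bp upstream and 312 bp inside. The serine/threonine kinase gene MELO3C010234.2 on chromosome 2 had peaks 151 and 2081 bp downstream, both about 500 bp wide at 506 and 502 bp. The membrane-bound kinase genes MELO3C014002.2 and MELO3C011466.2 had upstream peaks at 833 and 2111 bp and downstream peaks at 2252 and 875 bp. In the hormone list the 1 member was MELO3C025780.2 on chromosome 11, annotated with the synthesis of cytokinin, a hormone of cell division, with peaks 770 and 1559 bp inside the gene. That is 1 of 84 multi-peak genes, 1.19%, and 41 of 1585 genes with 1 promoter peak, 2.59%. Ethylene, abscisic acid and auxin were absent from the terms of the members. Their share in genes with 1 promoter peak was not counted, and 20 members have no term, so little can be read from the absence.

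Protein breakdown was represented by genes annotated with the addition or removal of ubiquitin and by the peptidase gene MELO3C022227.2 described above. The list had 6 of 84 multi-peak genes, 7.14% (2.67 to 14.9), and 97 of 1585 genes with 1 promoter peak, 6.12%. MELO3C012003.2 on chromosome 10, a ubiquitin ligase gene, had a peak over its start and one 1759 bp inside. MELO3C016165.2 on chromosome 7, like MELO3C009559.2 annotated with the removal of ubiquitin, had both peaks upstream at 585 and 1404 bp. The single term protein ubiquitination, picked after its values were seen, was carried by 3 of 84 multi-peak genes, 3.57%, and by 9 of 1585 genes with 1 promoter peak, 0.568%. A count of 3 limits what can be read from it.

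Genes of RNA and translation numbered 3 of 84 multi-peak genes, 3.57% (0.743 to 10.1), and 131 of 1585 genes with 1 promoter peak, 8.26%, which lies within the interval of the multi-peak genes. Besides the ribosomal protein gene above, MELO3C020380.2 on chromosome 5, a translation initiation factor gene, had a peak over its start and one 2126 bp upstream. MELO3C006573.2 on chromosome 6, an mRNA processing gene, had peaks 1117 bp upstream and 1991 bp inside. Vesicle and trafficking terms were found in 0 of 84 multi-peak genes, which allows a share of up to 4.30% (upper exact Clopper-Pearson limit), and in 33 of 1585 genes with 1 promoter peak, 2.08%.

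Oxidoreductases and redox genes formed the largest list, with 12 of 84 multi-peak genes, 14.3% (7.61 to 23.6), and 121 of 1585 genes with 1 promoter peak, 7.63% (6.37 to 9.05). In 8 of the 12 the peaks lay on both sides of the start, against 50 of all 104 multi-peak genes. MELO3C005561.2 on chromosome 9, a copper-binding oxidoreductase of the plasma membrane, had both peaks upstream, 20 and 1586 bp from the start. MELO3C023314.2 on chromosome 11 carries terms for dihydrofolate reductase and thymidylate synthase, enzymes that supply a DNA building block, and had a peak over its start and one 2081 bp upstream. The peroxidase gene MELO3C023613.2 on chromosome 1 had peaks of 331 and 335 bp, lying 136 and 883 bp inside the gene. Peroxidases use hydrogen peroxide to oxidise other molecules. The list is broad, since 1 member, MELO3C026333.2, entered it through the word glutathione and is a hydrolase of formaldehyde breakdown.

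Metabolic genes of sugars and lipids included a beta-amylase and a carotenoid gene, each with both peaks at or upstream of the start. Carbohydrate and cell wall terms were carried by 4 of 84 multi-peak genes, 4.76% (1.31 to 11.7), and by 92 of 1585 genes with 1 promoter peak, 5.80%. Beta-amylase releases maltose from starch, and its gene MELO3C006362.2 on chromosome 6 had a peak of 574 bp at 2811097 to 2811670 upstream and one of 468 bp at 2810152 to 2810619 over the start, 477 bp apart. Among glycosyltransferase genes, whose products attach sugars, the list held MELO3C026367.2 on chromosome 7, with peaks 114 bp upstream and 1214 bp inside, and MELO3C019881.2 on chromosome 3, with peaks 1044 and 1966 bp upstream. MELO3C022176.2 on chromosome 9 encodes a glucosylceramidase, which cleaves a sugar from a membrane lipid, and had peaks 1970 bp upstream and 1109 bp inside.

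Lipid and carotenoid terms were carried by 5 of 84 multi-peak genes, 5.95% (1.96 to 13.3), and by 73 of 1585 genes with 1 promoter peak, 4.61%. The carotenoid gene MELO3C020744.2 on chromosome 8, annotated as an oxidoreductase using molecular oxygen, had its upstream peaks at 10550008 to 10550355 and 10550750 to 10551301, 348 and 552 bp wide with 394 bp between them. Carotenoids are plastid pigments that colour many ripe fruits. MELO3C035508.2 on chromosome 12, a lipid oxidoreductase gene, had peaks 652 bp upstream and 1503 bp inside. Besides the glucosylceramidase gene above, the list holds genes for enzymes that act on proteins, MELO3C019817.2 for a palmitoyltransferase that attaches a fatty acid to cysteine and MELO3C019798.2 for an N-terminal acetyltransferase. MELO3C019817.2 had peaks 296 and 1523 bp inside the gene, and MELO3C019798.2 had peaks 39 bp upstream and 1841 bp inside.

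Transport, plastid and defense genes were few. Transporters numbered 3 of 84 multi-peak genes, 3.57%, and 101 of 1585 genes with 1 promoter peak, 6.37%. The cation-transporting ATPase gene MELO3C016915.2 on chromosome 7, a pump that moves metal ions across membranes, had peaks 80 bp upstream and 2001 bp inside. MELO3C025699.2 on chromosome 11 had both peaks upstream, at 562 and 2475 bp, and MELO3C018571.2 on chromosome 1 had peaks 2548 bp upstream and 938 bp inside. Chloroplast terms were carried by 2 of 84 multi-peak genes, 2.38%, and 61 of 1585 genes with 1 promoter peak, 3.85%. These were the acetyltransferase gene above and MELO3C017048.2 on chromosome 7, a gene of chloroplast division with a peak over its start and one 1437 bp inside. Defense and stress terms were carried by 3 of 84 multi-peak genes, 3.57%, and 51 of 1585 genes with 1 promoter peak, 3.22%. Besides the peroxidase, they were MELO3C034561.2 on chromosome 11, a defense response gene with 1 peak 90 bp upstream and 1 over its end, beginning 615 bp from the start, and MELO3C019981.2 on chromosome 3. The last is annotated with responses to water deprivation, bacteria and strong light, and had peaks 2442 bp upstream and 471 bp inside. The other 33 members with a GO term fell in no list, and 20 had no term.

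Multi-peak genes occurred on all 12 numbered chromosomes and on chr0, which conventionally holds unplaced sequence. Chromosome 3 had the most, 16 of its 167 genes with a promoter peak, 9.58% (5.58 to 15.1), and chromosome 7 had 12 of 148, 8.11% (4.26 to 13.7). Chromosome 1 had 4 of 177, 2.26% (0.619 to 5.68), and chr0 1 of 31. The interval of chromosome 3 lies above the 4.94% of all genes with a promoter peak, as the highest of 13 sequences and without a test. In the outer 10% at either end of the numbered chromosomes, measured to the last listed peak, stood 39.8% (30.3 to 49.9) of the multi-peak genes and 37.8% of the genes with 1 promoter peak.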

How the data were processed

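DAP-seq libraries of 2 MBP-His-CmNOR and 2 MBP-His control baits were reduced by the authors to 1 deposited table of 5493 peaks with positions, widths, gene assignments, distances in bp and GO terms, per the file headers. MACS2 and deepTools are named in the submitters' processing notes. Versions, thresholds, genome build, annotation and the rule for combining libraries are not given in the sources used, so how strictly weak or neighbouring peaks were kept is unknown. On checking, widths and signed distances were recomputed exactly in all 5493 rows, and a distance of 3000 bp or less coincided with the authors' promoter class in all of them. Identifiers matched the RefSeq gene table in 0 of 104 cases, so functions come from GO names alone and base sequence was not analysed here.

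Members were the gene identifiers with at least 2 rows within 3000 bp. A peak was upstream, over the start or downstream by its signed distance, and inside the gene or past its end by its centre. Shares carry 95% exact Clopper-Pearson intervals and medians 95% order-statistic intervals. Intervals on peaks ignore that peaks of a multi-peak gene belong together. The table has no value per library, so no test, no left-out library and no comparison of baits was possible. The members, the 12 keyword lists and all rules were chosen with earlier results of these data known. Genes were named by rule: 3 peaks, the 6 closest and 6 widest pairs, the 4 longest, 4 shortest and 4 with the widest peaks, up to 4 per list by distance, and 4 just outside the limit. This named 53 of the 104 members, and MELO3C020816.2, MELO3C026333.2 and the genes at the inner edge of the limit were added after their values were seen. So were MELO3C032481.2 and MELO3C007381.2, whose second peak overlaps the gene end. Side and merging steps were tested on simulated data. Computation used pandas 2.3.3, numpy 2.4.6 and scipy 1.17.1 under Python 3.11.15, and plots used matplotlib 3.10.9.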

Additional observations from a re-analysis of the deposited data

How the results depend on the processing

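The number of multi-peak genes followed the distance limit, 19 at 1000 bp, 58 at 2000 bp and 188 at 5000 bp, against 104 at 3000 bp, and it was 25 with peaks of at least the median width only. The median spacing was 1148, 1420 and 2284 bp at limits of 1000, 2000 and 5000 bp, against 1906 bp, which the limit itself sets. At 1000 bp the median gene length was 2685 bp, the median peak width 387 bp and the share of genes with peaks upstream and downstream 63.2%. With peaks of at least the median width that share was 32.0% and the median width 494 bp. Lists covered 49.0% of all members in place of 60.7% of those with a GO term. Other values of these measures stayed within 1.5 times the main count or inside the main 95% interval under all settings tried, which also included peak centres, leaving out chr0, merging peaks up to 500 bp apart and, added after seeing the data, merging overlapping peaks (102 genes). The 95% intervals of gene length overlapped between multi-peak genes and genes with 1 promoter peak in 4 of 8 alternatives. Among single GO lists, 13 of 108 values left the main interval. At 2000 bp kinases and phosphatases were 2.17% and transporters 0%. At 1000 bp, where 13 members had a GO term, defense was 15.4% and the RNA, chloroplast, hormone, lipid and transporter lists 0%. With peaks of at least the median width chloroplast was 10.0%, and ubiquitin, transporters and defense 0%. With peaks up to 500 bp apart merged hormones were 0%. No paired analysis was possible because the table has no column per library, and for the same reason no replicate could be left out. Precision is limited by the number of genes, and the depth is unknown.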

Other observations

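Some multi-peak genes had more peaks outside the promoter range. A further peak beyond 3000 bp was assigned to 18 of the 104 multi-peak genes, 17.3% (10.6 to 26.0), and to 222 of 2001 genes with 1 promoter peak, 11.1% (9.75 to 12.6), with overlapping intervals and no test. MELO3C021871.2, a DNA-binding protein gene of chromosome 11 named after its values were seen, had 2 further peaks, 4986 bp upstream and 4672 bp downstream of its start, which with its promoter peaks makes 4. The transporter gene MELO3C018571.2 had a further exonic one, 4743 bp downstream of the start. Further members were named after their annotation was seen. MELO3C030550.2, a gene model of 306 bp on chromosome 4, is annotated as a leucocyanidin oxygenase of anthocyanin pigment synthesis, and had peaks 640 bp upstream, 843 bp downstream and, beyond the promoter range, 5841 bp upstream. MELO3C027020.2 on chromosome 7, annotated as an alternative oxidase, a mitochondrial enzyme that passes electrons to oxygen without pumping protons, had peaks 700 bp upstream and 2268 bp downstream.

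A pair of multi-peak genes stood next to each other on chromosome 11, 4613 bp apart, with the closest following pair of members 65926 bp apart. MELO3C020816.2, annotated as a small GTPase, a molecular switch of signalling, had peaks 1330 bp upstream and 762 bp inside. With the promoter and intron peaks of the DNA replication gene MELO3C020815.2, 5 listed peaks fell between 3842637 and 3859359, a stretch of 16723 bp. Elsewhere members seldom shared peaks with listed neighbours: 4 of 209 promoter peaks of multi-peak genes, 1.91%, lay within 3000 bp of the start of another listed gene, as did 55 of 2001, 2.75%, of genes with 1 promoter peak. Genes without any assigned peak are not in the list, so these counts are lower limits.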
